A study of Mus musculus with 62 samples.

Results

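The comparison described here is the mRNA of C2C12 myoblasts that overexpressed the ribosomal protein RPL3L (RPL3L OE cells) against that of control C2C12 cells carrying the empty vector. It took 6 of the 62 samples of the series, 3 RNA-seq libraries of RPL3L OE cells and 3 of control cells. The members are all 10476 genes of the count table, each represented by 1 transcript, the one with the highest mean count over the 6 libraries. Of these genes, 5770 reached a mean count of 10 and were tested. The series as a whole asked how RPL3L changes translation in heart and muscle cells, and the RNA-seq of the C2C12 cells gives the mRNA levels that underlie the ribosome footprints of the same cell populations.

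C2C12 is an established line of mouse myoblasts. All 3 populations of cells were infected with a puromycin-resistance retrovirus (pCX4/puro) and selected with the antibiotic, and the virus carried mouse RPL3L cDNA, mouse RPL3 cDNA (RPL3 OE cells) or no insert (control cells). The cells were kept at low density in growth medium with fetal bovine serum, so they were proliferating myoblasts and not myotubes. The sources call the 3 cultures of a group biologically independent, but do not say whether each came from its own infection. The p-values therefore measure the spread between cultures, and a difference between infected populations cannot be told apart from an effect of the transgene.

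RPL3 is a core protein of the large ribosomal subunit that reaches towards the peptidyl transferase centre, and RPL3L is its close paralog made in striated muscle and heart. A ribosome holds either the RPL3 or the RPL3L protein. Proliferating myoblasts lack RPL3L, and they express MYOD1 and muscle adhesion proteins together with a large amount of actin cytoskeleton and extracellular matrix, whose genes respond to serum response factor (SRF), to the YAP and TAZ cofactors and to TGF-beta.

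Rpl3l (chromosome 17, 24727820 to 24736143 of GRCm38) stood at 1.27, 0.789 and 0.377 CPM (counts scaled to library size by the TMM method) in the control cultures, which were 5 to 9 counts. In the RPL3L OE cultures it reached 4546, 4597 and 4463 CPM. The RPL3 OE cultures held 0.296, 1.85 and 0.581 CPM. The log2 fold change against control was 12.59 ± 0.081 (SE), with an adjusted p of 8.15e-76. All adjusted p-values here come from the quasi-likelihood test of edgeR with Benjamini-Hochberg adjustment over all tested genes, and a gene was called higher or lower where this value was under 0.05. For scale, 4 libraries of wild-type mouse heart in the same table had 1001 to 1285 CPM of Rpl3l, against 4487 to 4612 CPM in the RPL3L OE cultures when both were divided by library totals only. The RPL3L OE libraries are thus set apart from the control libraries as labelled. Rpl3 lies on the minus strand, and only genes of the plus strand were analysed here, so the RPL3 OE label could not be checked in this way.

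The libraries held 6365745 to 13221696 counts in control cells and 3598635 to 4321560 in RPL3L OE cells over the 10476 genes, the third control library being the deepest. TMM factors lay between 0.995 and 1.009 in these 6 libraries. Of the 14 myoblast markers looked for, 7 were in the table and 6 were tested, and their summed level was 1973 to 2047 CPM in control, 2346 to 2368 CPM in RPL3L OE and 1447 to 1553 CPM in RPL3 OE cultures. Genes of other cell types were not at 0 throughout. The 16 fibroblast and fibro-adipogenic markers in the table summed to 14230 to 14400 CPM in control and 14230 to 14700 CPM in RPL3L OE cultures, largely Vim and S100a4, which myoblasts also express, while Thy1 was at 0. The 12 adipocyte markers summed to 140.3 to 151.2 CPM in control and 110.8 to 126.1 CPM in RPL3L OE cultures. Of these, Adipoq, Cidea, Lep, Retn and Cfd were at 0 in all 6 libraries, while Pparg, Cebpa, Lpl, Pck1 and Acsl1 reached the count for testing. The 13 bone and cartilage markers gave 5106 to 5456 and 5001 to 5182 CPM, with Ibsp, Col9a1, Matn1 and Chad at 0 and Spp1, Dlx3 and Sox9 tested. The 17 endothelial, blood and neural markers gave 1693 to 1767 and 1574 to 1629 CPM. Adgre1 and Alas2 were at 0, and Cdh5, Hba-a1, Tubb3, Map2 and Nefl were tested. The part that a shift in cell types has in the results below was not tested.

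Most differences between RPL3L OE and control cells were small. Of the 5770 genes tested, 571 were called, or 9.9%. The 299 higher genes were 5.18% of those tested and the 272 lower genes 4.71%. At an unadjusted p under 0.05 there were 1299. Leaving Rpl3l out, the median fold was 1.19 among the higher genes and 1.2 among the lower genes. A change of at least 1.5-fold was seen in 26 higher and 46 lower genes, and one of at least 2-fold in 5 higher and 20 lower genes. The 3 values of each group did not overlap in 287 of the higher and 262 of the lower genes, against 25.8% of all tested genes in either direction. With DESeq2 in place of edgeR 379 genes were called. Without the third control library the number was 357, and without the second RPL3L OE library 377.

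**Figure D1:**
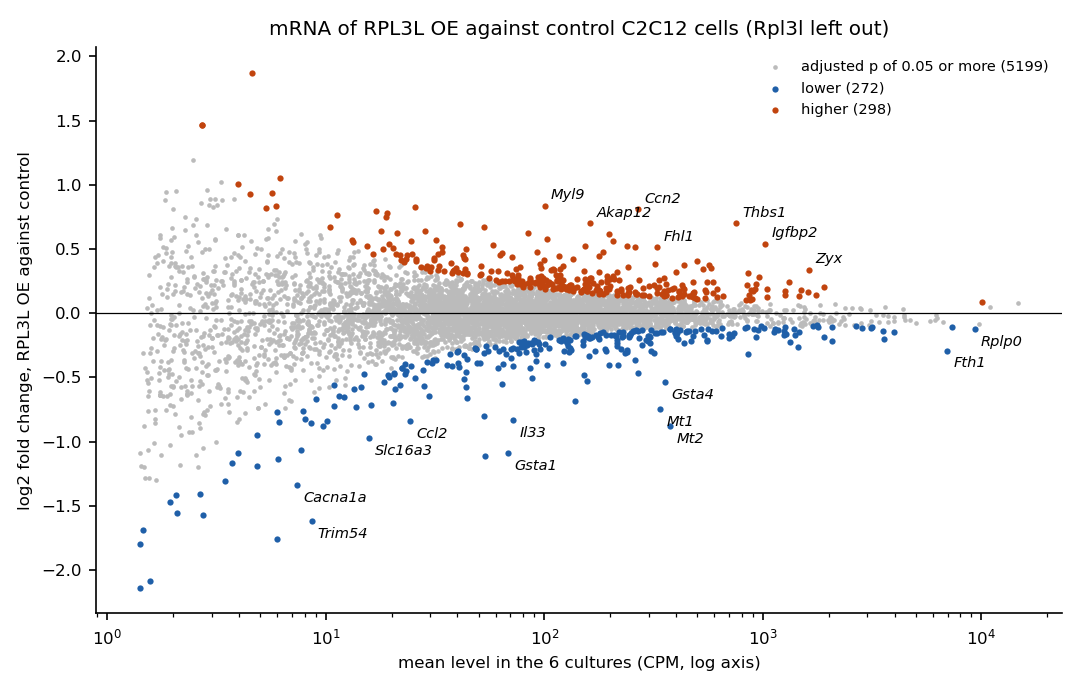
Log2 fold change of RPL3L OE against control cells for each tested gene (vertical axis) by its mean level over the 6 libraries in CPM (horizontal log axis), with called genes in colour and Rpl3l left out. Most of the 298 higher and 272 lower genes lie within 1.5-fold, and larger changes are found mainly at low levels.

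Genes of the actin cytoskeleton and of matrix-bound signalling were among the higher mRNAs. Myl9 (chromosome 2, 156775420 to 156781658), the regulatory light chain of smooth muscle and non-muscle myosin, was at 65.9, 75.3 and 74.5 CPM in control cells and at 127, 123 and 137 CPM in RPL3L OE cells. The groups did not overlap, which was a condition for naming the gene, and the change was 1.79-fold (log2 0.84 ± 0.066, adjusted p = 1.18e-15). Ccn2 (chromosome 10, 24595442 to 24598678), the connective tissue growth factor, rose from 185, 204 and 194 CPM to 354, 317 and 351 CPM, 1.76-fold, with an adjusted p of 3.77e-22. Every RPL3L OE culture was above every control culture, as the rule for naming required. Thbs1 (chromosome 2, 118111876 to 118127133), which encodes thrombospondin 1, was at 568, 594 and 557 CPM in control and 945, 877 and 973 CPM in RPL3L OE cells, a log2 change of 0.70 ± 0.036 with an adjusted p of 3.01e-24.

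Of the 26 genes listed as smooth muscle genes or SRF targets, 14 were in the table and 13 were tested. Of those, 9 rose and the other 4 did not pass the test, and the median log2 change was 0.282 against -0.0015 over all tested genes. Fhl1, a LIM-domain protein of muscle, went from 274, 270 and 268 CPM to 376, 394 and 390 CPM, 1.43-fold (adjusted p = 4.02e-15). Vcl, vinculin of the focal adhesion, rose from 430, 432 and 425 CPM to 559, 582 and 566 CPM, 1.33-fold (adjusted p = 8.28e-14). The cultures of each group lay close together in these genes and the groups did not overlap. Cnn1, calponin 1 of smooth muscle, had low and scattered values, with 4.82, 11.2 and 8.97 CPM in control and 11.3, 18.2 and 13.1 CPM in RPL3L OE cells. Its log2 change of 0.77 ± 0.216 (adjusted p = 0.0133) was not called by DESeq2 or without the first control or the second RPL3L OE library. The other members that rose were Csrp1, Zyx, Cnn2, Cnn3 and Tagln2, by 0.37, 0.34, 0.28, 0.17 and 0.14 on the log2 scale.

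The promoter of Myl9 is shown because this gene had the largest increase after Rpl3l among called genes with a mean count of at least 50 and because SRF binds the CArG box. The sequence is from RefSeq (GRCm38.p6, chr2:156775214-156775513, plus strand), 250 bases before to 50 bases after the start, with the CArG box, searched on both strands, in capitals.
Myl9: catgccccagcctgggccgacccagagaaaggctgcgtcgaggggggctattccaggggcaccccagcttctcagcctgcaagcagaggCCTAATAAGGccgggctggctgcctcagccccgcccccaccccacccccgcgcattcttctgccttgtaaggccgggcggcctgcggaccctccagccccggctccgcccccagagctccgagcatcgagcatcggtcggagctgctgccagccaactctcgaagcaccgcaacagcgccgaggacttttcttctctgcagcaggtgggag
A CArG box was present in 1.63% of all 32851 promoters of this length and in 1.72% of the tested genes that had one. It was found in 5 of the 12 SRF list members with a promoter, but the list was made of such targets, so this share tests nothing in these data. Among called genes, 13 of 225 promoters of higher genes and 2 of 207 promoters of lower genes held it. The higher genes include called members of that list, which were not counted apart. These are matches of letters and not shown to be bound in these cells.

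**Figure D2:**
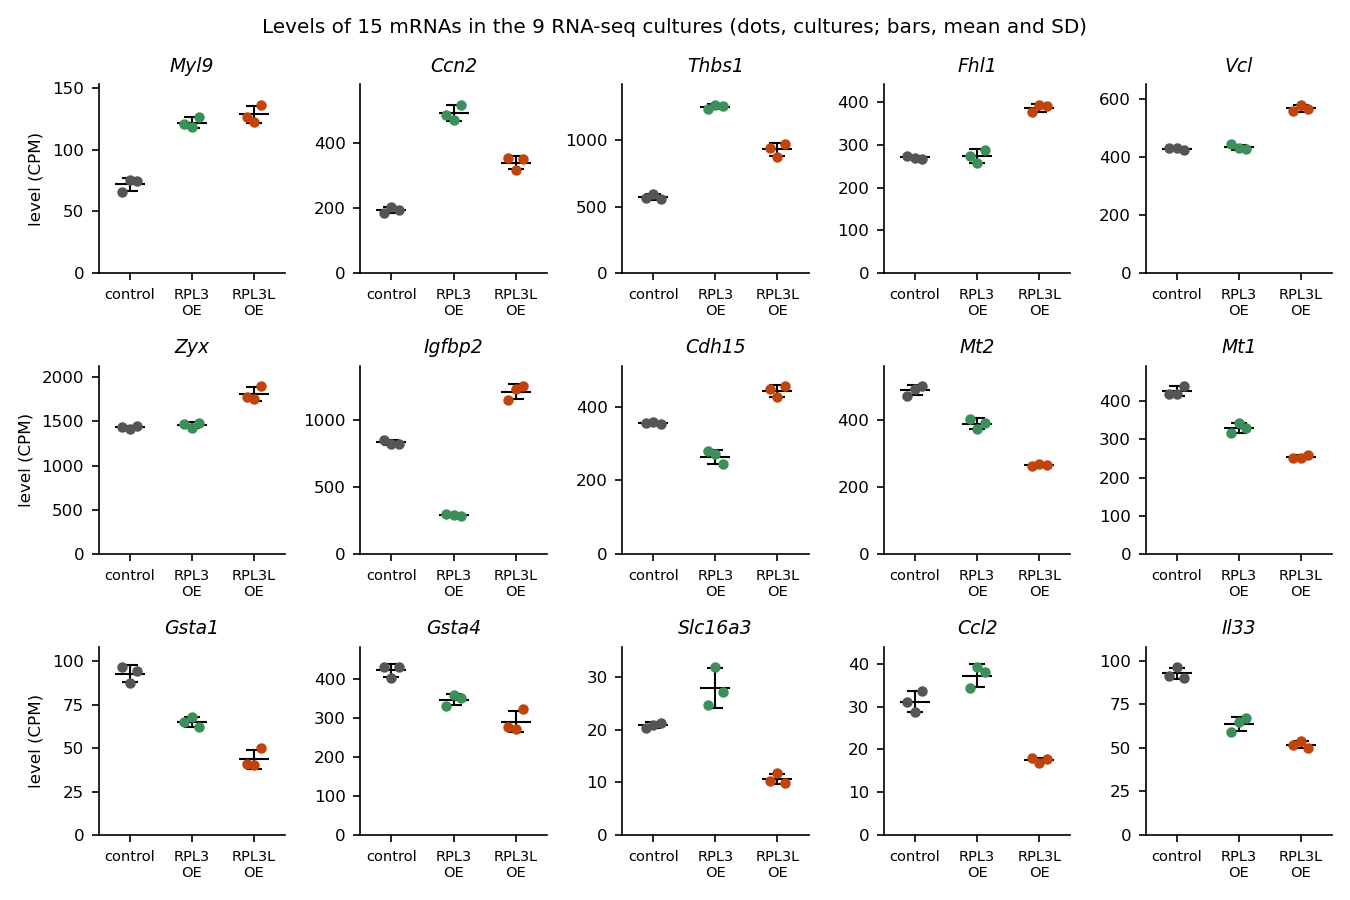
Levels in CPM (vertical axes from 0) of 15 mRNAs in each RNA-seq culture, by group, with dots for cultures and bars for the mean and SD (n = 3). Myl9, Ccn2, Thbs1, Fhl1, Vcl, Zyx, Igfbp2 and Cdh15 are higher and Mt2, Mt1, Gsta1, Gsta4, Slc16a3, Ccl2 and Il33 lower in every RPL3L OE culture than in every control culture.

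Of 25 tested collagens and matrix proteins 10 were higher and the other 15 did not pass, with a median log2 change of 0.138. In Ribo-seq 5 of 24 members were higher and 5 lower, with a median of -0.00092. Apart from Thbs1, the largest increase was in Loxl2, a lysyl oxidase that crosslinks collagen, which went from 78.2, 85.4 and 85.1 CPM to 121, 120 and 131 CPM (1.49-fold, adjusted p = 2.36e-09). Col4a2 of basement membrane collagen rose by 0.41 and Col5a1 of fibrillar collagen by 0.38 on the log2 scale, with adjusted p-values of 1.73e-06 and 3.05e-10. Without the third control library 6 members of this list were called. Of 18 tested matrix proteases and inhibitors 6 were higher. Plau, the urokinase plasminogen activator, was at 149, 161 and 159 CPM in control and 250, 234 and 236 CPM in RPL3L OE cells, 1.53-fold higher (adjusted p = 1.31e-14). Adamts12, a metalloproteinase with thrombospondin motifs, rose by 0.82 and its relatives Adamts6 and Adamts7 by 0.34 and 0.27 on the log2 scale. Adamts12 did not meet both conditions for the 10 largest increases, a mean count of at least 50 and groups that do not overlap. Timp1 and Timp3, inhibitors of matrix metalloproteinases, rose by 0.25 and 0.21 on the log2 scale. Of 16 tested integrins and adhesion proteins 4 were higher, among them Itgb3 (log2 0.37) and Itgb1 (log2 0.13). Nrcam, a neural adhesion protein, fell from 12.2, 10.7 and 10.3 CPM to 6.64, 4.11 and 7.37 CPM (adjusted p = 0.00701), a call lost without the second RPL3L OE library. In these 3 lists 40%, 33.3% and 31.2% of the tested members were called, against 9.9% of all tested genes.

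Several signalling and surface proteins were among the 10 largest increases of called genes with a mean count of at least 50 and groups that did not overlap. Without these 2 conditions the largest increase after Rpl3l was 3.66-fold. Akap12, a scaffold for protein kinase A, rose from 115, 123 and 131 CPM to 191, 208 and 204 CPM (1.63-fold, adjusted p = 2.93e-15). Cd80, known as a co-stimulatory ligand for T cells, rose from 32.7, 32.7 and 29.6 CPM to 53.1, 49.5 and 49.7 CPM (1.61-fold). For Txnip, the thioredoxin-interacting protein that restrains glucose uptake, the values were 17.1, 13.4 and 12 CPM against 25.2, 24.4 and 22.3 CPM, with an adjusted p of 0.000158. In all 3 genes the groups did not overlap, which was a condition for naming them. Mgam (maltase-glucoamylase), Siglecg (a sialic acid-binding lectin) and Zfp980 rose by 0.83, 0.80 and 0.75 on the log2 scale from control means of 18.5, 12.7 and 14.1 CPM. Zfp980 belongs to a cluster of near-identical zinc finger genes whose reads can be shared, so its value is uncertain. At higher levels, Igfbp2, which binds insulin-like growth factors, rose from 855, 821 and 825 CPM to 1151, 1232 and 1258 CPM (1.46-fold, adjusted p = 6.05e-20), and Ly6e, a GPI-anchored surface protein, from a mean of 167 ± 3.57 to 246 ± 5.71 CPM (SD, n = 3; 1.48-fold).

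Metallothioneins and enzymes that use glutathione were among the lower mRNAs. Metallothioneins are small cysteine-rich proteins that bind zinc and copper. Mt2 (chromosome 8, 94172860 to 94173564) fell from 471, 492 and 501 CPM to 262, 268 and 266 CPM, which was 1.84-fold lower (log2 -0.88 ± 0.041, adjusted p = 3.96e-26). Mt1 (chromosome 8, 94179211 to 94180327) fell from 418, 419 and 441 CPM to 251, 252 and 258 CPM, 1.68-fold lower (adjusted p = 2.35e-22). Both genes lie within a stretch of chromosome 8 whose genes were lower as a whole, described last, where the median log2 change was -0.216 without these 2 genes.

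The promoters of both metallothionein genes are shown because their mRNAs moved together and both hold several metal response elements, the sites bound by the zinc sensor MTF1. Matches to TGCACNC or TGCGCNC on either strand are in capitals in the RefSeq sequences (GRCm38.p6, plus strand) chr8:94178839-94179138 for Mt1 and chr8:94172368-94172667 for Mt2.
Mt1: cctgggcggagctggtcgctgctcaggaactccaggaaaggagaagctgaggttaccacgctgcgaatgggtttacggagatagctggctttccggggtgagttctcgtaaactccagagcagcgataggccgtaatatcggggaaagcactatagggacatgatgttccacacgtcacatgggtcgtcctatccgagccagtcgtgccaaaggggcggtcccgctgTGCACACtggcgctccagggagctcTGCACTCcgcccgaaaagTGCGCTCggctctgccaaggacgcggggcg
Mt2: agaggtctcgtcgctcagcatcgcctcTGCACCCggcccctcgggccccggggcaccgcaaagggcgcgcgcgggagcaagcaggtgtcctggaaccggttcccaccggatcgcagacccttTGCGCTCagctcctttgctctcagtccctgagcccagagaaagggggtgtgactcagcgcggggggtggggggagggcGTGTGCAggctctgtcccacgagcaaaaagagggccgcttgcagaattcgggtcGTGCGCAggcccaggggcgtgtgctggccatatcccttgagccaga
There are 3 matches in Mt1 and 4 in Mt2. Both windows were placed by the RefSeq start and end before the start of the transcript counted here (94179211 for Mt1, 94172860 for Mt2). The matches thus lie upstream of those starts, and the bases next to them are not shown. At least 1 match was present in 25.7% of all promoters of this length, in 41.9% of those of tested genes and in 33.3% of those of lower genes.

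Gsta1 (chromosome 9, 78230656 to 78242684), a glutathione S-transferase, fell from 96.9, 87.5 and 94.6 CPM to 40.7, 40 and 50 CPM (log2 -1.09 ± 0.083, adjusted p = 2.54e-16). Its near copy Gm3776 next to it showed 78.1, 68.2 and 74.8 CPM against 31.5, 30.3 and 39.8 CPM, but these genes can share reads and are not independent. Gsta4, which detoxifies 4-hydroxynonenal, went from 432, 404 and 432 CPM to 278, 274 and 323 CPM (1.45-fold lower, adjusted p = 1.57e-14). Mgst2, a microsomal glutathione S-transferase, was at 12.2, 12.6 and 12.8 CPM in control and 6.64, 7.44 and 6.45 CPM in RPL3L OE cells. The groups of 3 did not overlap in any of these 4 genes, which was a condition for naming them.

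Of the 17 tested genes listed as antioxidant targets of the transcription factor NRF2, 10 fell and the other 7 did not pass, with a median log2 change of -0.17. Beside Gsta1 and Gsta4 the largest decreases were in Aldh3a1, an aldehyde dehydrogenase (80.3, 71.4 and 77.3 against 50.1, 52.9 and 53.9 CPM, adjusted p = 1.36e-06), and Hmox1, heme oxygenase 1 (45.2, 46.4 and 45.4 against 36.8, 32.1 and 35.7 CPM, adjusted p = 0.00483). The most abundant member, the ferritin heavy chain Fth1, fell from 7616, 7535 and 7833 CPM to 6182, 6184 and 6406 CPM (1.22-fold lower, adjusted p = 1.06e-11). Gclm, Gsr, Prdx1, Taldo1 and Txnrd1 fell by 0.39, 0.23, 0.17, 0.13 and 0.10 on the log2 scale. DESeq2 called 8 members of this list, and Hmox1 was not called without the second RPL3L OE library. A match to the antioxidant response element was present in 4 of the 11 members with a promoter, in 12.4% of all promoters and in 16.9% of those of tested genes, with 20% among higher and 18.4% among lower genes.

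Of 17 tested cytokines and NF-kB targets 5 fell, 2 rose and 10 did not pass, and the median log2 change was -0.22. Ccl2, the monocyte chemoattractant, fell from 31, 28.7 and 33.6 CPM to 18, 16.9 and 17.7 CPM (1.79-fold lower, adjusted p = 1.2e-06). Il33, a nuclear alarmin of the interleukin-1 family, fell from 91.1, 96.5 and 90.2 CPM to 51.5, 54.1 and 50 CPM (1.78-fold lower, adjusted p = 4.23e-13). Cxcl5 and Tslp were low in all cultures, with control means of 4.91 and 5.44 CPM, and fell by 1.31 and 1.09 on the log2 scale. In contrast Ptgs2, the inducible cyclooxygenase, rose from 50.9, 46.4 and 45.9 CPM to 77.5, 60.6 and 68.6 CPM (adjusted p = 5.95e-06), and its constitutive relative Ptgs1 rose by 0.38 on the log2 scale. When counts were summed over transcripts, 4 members of this list were called. In the main fit 41.2% of its tested members were called, against 9.9% of all tested genes.

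Slc16a3, the MCT4 transporter that exports lactate, went from 20.3, 20.8 and 21.3 CPM to 10.2, 11.8 and 9.9 CPM (1.96-fold lower, adjusted p = 5.94e-06), and Slc16a11 of the same family fell by 0.48 on the log2 scale. Of 34 tested growth factors and receptors 5 fell, 1, Igfbp2, rose and 28 did not pass, with a median log2 change of 0.0366, and 3 were called without the first RPL3L OE library. Those that fell were Fgf7 (keratinocyte growth factor), Vegfd, Kitl (the ligand of KIT), Fgf5 and Igfbp6. Fgf7 was at 17.7, 16.6 and 17.5 CPM in control and 7.19, 11.3 and 12.4 CPM in RPL3L OE cells (adjusted p = 0.00263), with the most spread in the RPL3L OE group. In the list of 15 tested hypoxia and glycolysis genes 2 rose (P4ha2 and Eno3) and 2 fell (Slc16a3 and Pdk1). This is 26.7% called, with 17.6% for growth factors and receptors, against 9.9% of all tested genes. Dlk2, a relative of the Notch inhibitor DLK1, was at 10.8, 9.16 and 11.1 CPM in control and 5.53, 5.13 and 4.37 CPM in RPL3L OE cells (2.09-fold lower, adjusted p = 0.000589). Galnt10, which starts O-glycans, fell by 0.53 on the log2 scale.

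Of 8 tested genes in a list of 20 myoblast markers, which is wider than the 14 markers used above, 4 rose, Cd34 fell and 3 did not pass. Cdh15, the M-cadherin of myoblasts, rose from 355, 357 and 353 CPM to 447, 425 and 456 CPM (1.25-fold, adjusted p = 1.74e-08). Itga7, the laminin receptor of muscle, rose from 483, 472 and 458 CPM to 599, 595 and 601 CPM (1.27-fold, adjusted p = 4.07e-11). Des (desmin) and Met (the hepatocyte growth factor receptor) rose by 0.19 and 0.14 on the log2 scale. Myod1, the master regulator of the lineage, was at 189, 155 and 170 CPM in control and 171, 181 and 188 CPM in RPL3L OE cells, so the groups overlapped (adjusted p = 0.517). Megf10 of muscle progenitors was at 85.4, 74.7 and 74.3 against 93.8, 80.3 and 93.9 CPM (adjusted p = 0.0782).

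Of 7 tested regulators of differentiation, Cdon, a co-receptor that promotes myogenesis, rose (log2 0.29, adjusted p = 5.46e-05) and the other 6 did not pass, with a list median of -0.0972. Of 15 tested sarcomere and contraction genes, Tnnt2 (cardiac troponin T, also made in myoblasts) rose from 498, 506 and 513 CPM to 655, 665 and 620 CPM (1.28-fold) and the other 14 did not pass. The share called was 14.3% among the regulators and 6.67% in the sarcomere list, against 9.9% of all tested genes. The largest decrease among genes with a mean count of at least 50 was in Trim54, the muscle ubiquitin ligase MuRF3 that binds microtubules and Z discs. It was at 12.9, 12.6 and 13.3 CPM in control and 3.87, 5.9 and 2.99 CPM in RPL3L OE cells (3.07-fold lower, adjusted p = 7.89e-07). Cacna1a, the pore subunit of the P/Q-type calcium channel, fell from 10.5, 9.95 and 11.3 CPM to 3.6, 2.82 and 5.99 CPM (adjusted p = 5.98e-05), and it too lies in the chromosome 8 stretch.

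Of 31 tested proteins of the large subunit 6 fell and 25 did not pass, the median log2 change was -0.0586, and 2 had a positive value. Of 15 tested proteins of the small subunit 3 fell and 12 did not pass, with a median of -0.0793. Called members were 19.4% for the large and 20% for the small subunit, against 9.9% of all tested genes. Rplp2, an acidic stalk protein, was at 1893, 2130 and 2036 CPM in control and 1887, 1766 and 1692 CPM in RPL3L OE cells, so that the highest RPL3L OE culture was just below the lowest control culture (log2 -0.18, adjusted p = 0.000163). Rplp0 and Rpl6 fell by 0.12 and 0.14 on the log2 scale. These counts depended on the control libraries, with 11 and 6 genes of the large and small subunit called without the first control library and 3 and 1 without the third, all lower. Ribosomal protein genes have many processed copies in the genome, with which they can share reads. Of 39 tested factors of ribosome biogenesis 3 rose (Polr1b, Nop2 and Rrn3, log2 0.21, 0.15 and 0.14), or 7.69% against 5.18% of all tested genes, and DESeq2 called none of them. Of 23 translation factors 2 fell, or 8.7% against 9.9% called of all tested genes, Eif5 by 0.18 and Eef2 by 0.11 on the log2 scale.

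Among 18 tested genes listed under cholesterol synthesis, those that rose included the regulator Srebf2, Sqle and Scd2, by 0.22, 0.20 and 0.15 on the log2 scale. When RPL3 OE cells were set against control, 8 of this list were higher and 1 lower. Of 17 genes of TGF-beta and BMP signalling 5 rose and 2 fell, with Fstl3, an activin-binding follistatin, at 34.1, 38 and 36.7 against 46.2, 51.3 and 55.7 CPM. The number called in this list was 3 with DESeq2, 3 without the third control or the second RPL3L OE library, 4 without the first or second control or the first RPL3L OE library, and 2 with summed counts. Of 47 cell cycle genes 3 rose (Tpx2, Prc1 and Ube2c of mitosis) and 3 fell (Orc6, Hells and Mcm5 of replication). Of 10 p53 targets Plk2 rose (log2 0.53), and of 10 genes of the ATF4 response Atf4 itself rose (log2 0.18). Of 15 heat shock and chaperone genes Hspa4l, Cryab and Dnajb1 fell and Hsf1 rose, of 24 subunits of oxidative phosphorylation 3 fell, and of 22 proteasome subunits Psma5 fell, which is 4.55% against 4.71% of all tested genes. Of 14 genes of endoplasmic reticulum stress Hspa5 rose and Sec61b fell, and of 16 interferon response genes Irf1 rose and Ifit2 fell. Of 18 genes of Wnt signalling Fzd2 rose, and Sfrp2 (log2 -1.41) and Fzd6 fell. Sfrp2 did not meet both conditions for the 10 largest decreases, a mean count of at least 50 and groups that do not overlap. Of 6 genes of Notch signalling Hes1 rose and Dlk2 fell. Of 15 immediate-early genes Klf6 and Myc rose and Egr1 fell. Naglu rose and Lamp1 fell among 24 genes of lysosome and autophagy. Farsa fell among 8 tRNA synthetases, H2afz among 9 histone genes and Cacna1a among 14 genes of calcium transport. The share called was 9.9% over all tested genes. It was 7.14% for calcium transport, 8.33% for lysosome and autophagy and 10% each for the p53 and ATF4 lists. It was 11.1% for histones, 12.5% each for the interferon, tRNA synthetase and oxidative phosphorylation lists and 12.8% for the cell cycle. It was 14.3% for endoplasmic reticulum stress, 16.7% for Wnt, 20% for immediate-early genes, 26.7% for heat shock and 33.3% for Notch. For cholesterol synthesis it was 22.2%, and for TGF-beta and BMP signalling 41.2%. In several of these lists the calls rested on single libraries. Without the second RPL3L OE library no member of the interferon, Wnt or lysosome list was called. Without the third control library none of the interferon or proteasome list was, and Psma5 was also lost without the second control, the first RPL3L OE or the third RPL3L OE library. DESeq2 called no interferon response gene, 1 immediate-early gene (also 1 without the first or the third control or the first or second RPL3L OE library) and 1 Notch gene (also 1 without the second or the third control or the second or the third RPL3L OE library). The heat shock list had 2 calls without the third control or the second or the third RPL3L OE library. Of 8 tested steroid synthesis genes none passed with edgeR or DESeq2. Members of other cell type lists that changed included Pparg (log2 -0.37), Cd34 (log2 -0.51), Nefl (log2 -0.16) and Sox9 (log2 0.26), while S100a4 fell by 0.20 and Vim rose by 0.09 on the log2 scale.

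**Figure D3:**
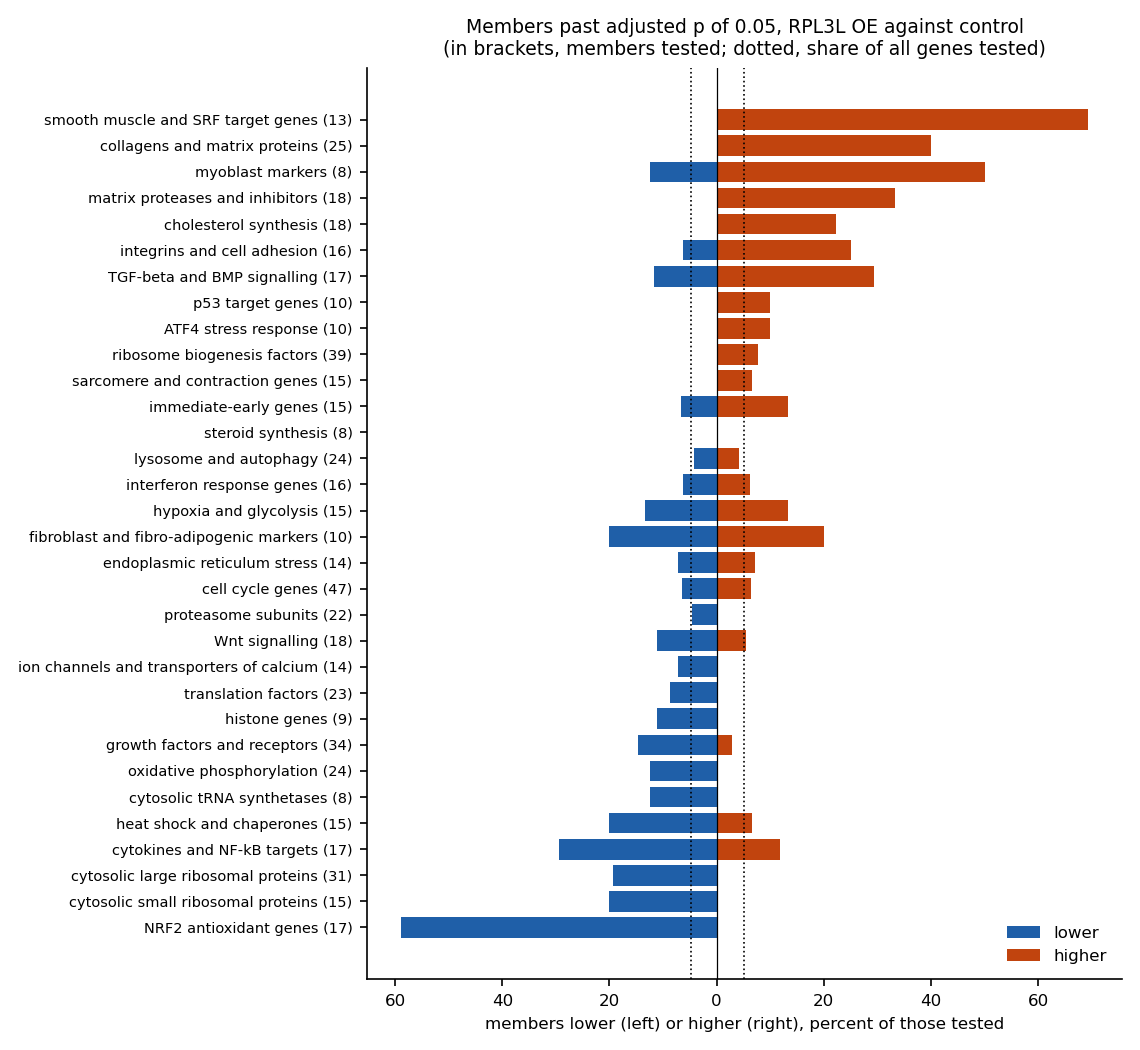
Members of each gene list called lower (left) or higher (right) in RPL3L OE against control cells, as a percentage of the members tested (in brackets), for lists with 8 or more tested members. Dotted lines mark the 4.71% lower and 5.18% higher among all tested genes, and the SRF list (9 of 13 higher) and the NRF2 list (10 of 17 lower) extend farthest.

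RPL3 OE cells carry the same vector with the ubiquitous paralog, so the comparison with them asks whether overexpression of either protein gives the same mRNA levels. Against RPL3 OE cells, RPL3L OE cells had 768 higher and 816 lower genes, 13.3% and 14.1% of those tested or 27.5% together. RPL3 OE against control had 514 (8.91%) higher and 480 (8.32%) lower, or 17.2% together. On chromosome 12, 88 of 214 tested genes were higher and 3 lower in RPL3 OE against control, with a median log2 change of 0.17. RPL3L OE against RPL3 OE gave 89 lower and 3 higher genes there, with a median of -0.219. The part of chromosomal position in these differences was not tested. These comparisons share their libraries, so the values are given side by side, with the direct test between the 2 overexpressing populations. Myl9 was at 121, 118 and 127 CPM in RPL3 OE cells, and the difference between RPL3L OE and RPL3 OE was 0.07 on the log2 scale with a 95% interval of -0.06 to 0.21 (adjusted p = 0.453). Ccn2 was at 490, 473 and 520 CPM in RPL3 OE cells, above RPL3L OE cells by a log2 difference of -0.54 (interval -0.63 to -0.45), and Thbs1 at 1237, 1268 and 1258 CPM, a difference of -0.43. In these 3 genes both overexpressing groups were above control. Of the 13 tested members of the SRF list, 7 were called higher when RPL3 OE cells were set against control, and RPL3L OE against RPL3 OE gave 5 higher and 2 lower with a median of -0.0244. Of the 25 collagens and matrix proteins, 12 were higher and 3 lower when RPL3 OE cells were set against control, and 4 were higher and 11 lower in RPL3L OE than in RPL3 OE cells. For the 17 NRF2 targets, these counts were 2 and 4, and 1 and 8.

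Other increases were found against both controls. In RPL3 OE cells Fhl1 was at 275, 256 and 288 CPM and Vcl at 444, 430 and 427 CPM, close to control, and RPL3L OE cells were higher by 0.50 and 0.39 on the log2 scale (adjusted p = 8.24e-14 and 1.02e-12). Igfbp2 was at 300, 295 and 284 CPM in RPL3 OE cells, below control, so that the difference to RPL3L OE cells was 2.05 on the log2 scale. The largest differences to RPL3 OE among genes called in the same direction against control were in Pdlim3, a Z-disc protein (log2 2.94), Zfp985 (2.52), Mgam (2.27), Igfbp2 and Stmn4, a stathmin (1.95). In Pdlim3 the RPL3 OE cultures held 5.33, 5.01 and 4.84 CPM against 32.9, 32.8 and 27.8 CPM in control and 36, 40 and 39.8 CPM in RPL3L OE cells. Its change against control was thus small (log2 0.33, adjusted p = 0.0486) and was called in 7 of 16 alternative analyses. The changes of Zfp985 and Stmn4 against control were also near the threshold (adjusted p = 0.046 and 0.0364, called in 8 and 12 of 16), and Zfp985, like Zfp980, can share reads with near-identical zinc finger genes.

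Among lower genes, Mt2 was at 403, 372 and 390 CPM in RPL3 OE cells, between the other groups, and the RPL3L OE value was lower by a log2 difference of -0.55 (adjusted p = 7.61e-16). Gsta1 was also in between, at 64.9, 68.1 and 62.1 CPM, with a difference of -0.57. Slc16a3, Ccl2 and Dlk2 were at 27.9, 37.3 and 12.8 CPM on average in RPL3 OE cells, and their control means were 20.8, 31.1 and 10.3 CPM. Of these differences to control only that of Slc16a3 was called (adjusted p = 0.0157, against 0.111 for Ccl2 and 0.304 for Dlk2). The differences of RPL3L OE from RPL3 OE were -1.39, -1.09 and -1.36 on the log2 scale. Fgf7 and Medag, an adipogenesis gene, were likewise lower than in RPL3 OE cells, by -1.13 and -1.11. For Trim54 the RPL3 OE cultures held 5.63, 9.24 and 10.6 CPM, and the difference was -1.05 (adjusted p = 0.00294). The control mean was between those of the overexpressing groups for some myoblast markers, with Des at 387 ± 15.6, 575 ± 5.03 and 656 ± 18.4 CPM and Myod1 at 105 ± 7.45, 172 ± 16.7 and 180 ± 8.45 CPM (mean ± SD, n = 3) in RPL3 OE, control and RPL3L OE cells. For Myod1 the control and RPL3L OE cultures overlapped (adjusted p = 0.517).

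Ribosome footprints gave a second readout of these cells, from separate libraries, though whether RNA-seq and Ribo-seq libraries with the same number came from the same culture is not given in the sources used here. In Ribo-seq 348 genes were higher (6.45%) and 366 lower (6.79%) in RPL3L OE than in control cells, 13.2% of 5393 tested, and with library totals in place of TMM 472 were higher and 254 lower. Of the 294 genes higher in RNA-seq that were tested in Ribo-seq, 238 had a positive Ribo-seq change, 96 were called higher and 3 (Cited2, Crip2 and Hspg2) lower. Of the 261 lower genes, 213 had a negative change, 106 were called lower and 5 (Gtf2a2, Polr2k, Rpl21, Smc4 and Zfp617) higher. The median log2 change of the higher genes was 0.25 in RNA-seq and 0.15 in Ribo-seq, and that of the lower genes -0.26 and -0.17. Myl9, Ccn2 and Thbs1 had Ribo-seq changes of 0.42, 0.48 and 0.40 on the log2 scale, all called. Mt2 and Mt1 fell by 0.96 and 0.72, Gsta1 by 0.74, Slc16a3 by 1.13 and Mgst2 by 1.39. Trim54 fell by 1.24 in Ribo-seq, while Cacna1a had a Ribo-seq change of -0.02 (adjusted p = 0.966).

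**Figure D4:**
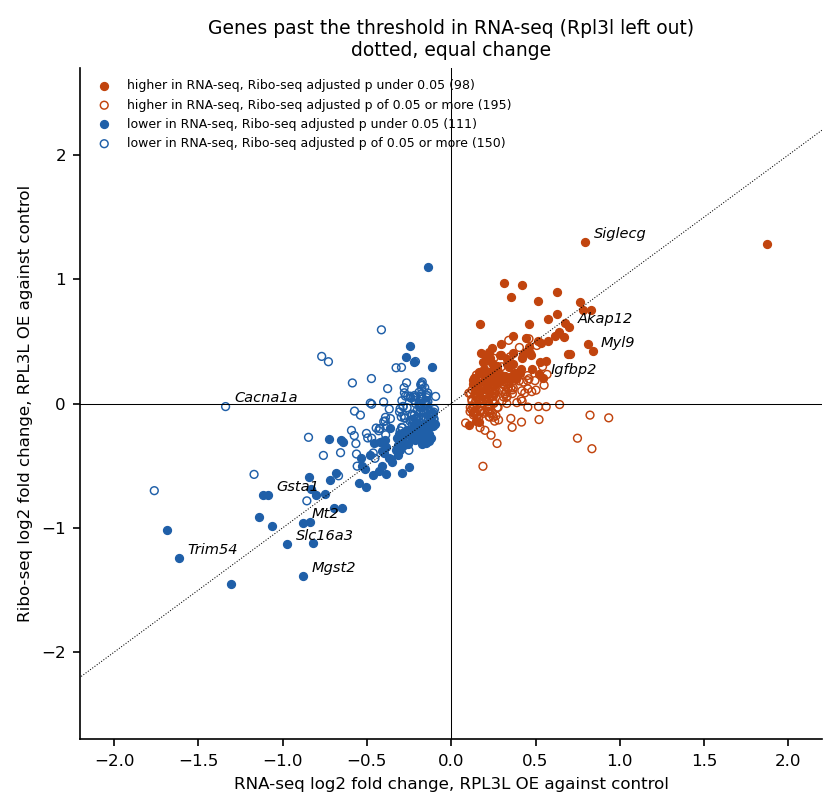
Log2 fold change in Ribo-seq (vertical) against that in RNA-seq (horizontal), RPL3L OE against control, for genes called in RNA-seq and tested in Ribo-seq, with filled points where Ribo-seq also passed and a dotted line of equal change; Rpl3l is not drawn. Most points lie in the quadrants of equal sign, 238 of 294 higher and 213 of 261 lower genes with Rpl3l counted.

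The changes were not spread evenly over the chromosomes. On chromosome 8, 56 of 330 tested genes were lower and 12 higher, on chromosome 3 35 of 301 were lower and 7 higher, and on chromosome 5 27 of 367 were lower and 6 higher. In the other direction, chromosome 2 had 41 higher and 10 lower of 478, chromosome 1 29 and 7 of 327, chromosome 6 22 and 3 of 273, and chromosome 16 21 higher of 183. The median log2 change by chromosome ran from -0.0599 on chromosome 8 to 0.0666 on chromosome 16. These are medians over all tested genes of a chromosome. The medians of the 2 ribosomal protein lists above, -0.0586 and -0.0793, were of similar size. On chromosome 8, 34 of the 56 lower genes lie in 1 stretch, described below.

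When the genome was divided into windows of 10 Mb, 210 windows held at least 10 tested genes. The median log2 change was at or under -0.2 in 2 windows, which adjoin each other on chromosome 8 from 80 to 100 Mb, and at or over 0.2 in 1, on the X chromosome, where near-identical Ott family genes with low counts can share reads. All other windows had medians between -0.116 and 0.123. In the chromosome 8 stretch, where the tested genes start at 82863356 and end at 95826134, 57 of 64 genes had a negative change and 34 were called lower, or 53.1% against 4.17% of all other genes. The median change was -0.222, that is 1.17-fold lower. The summed level of the 64 genes was 11554, 11443 and 11494 CPM in the control cultures and 9524, 9528 and 9639 CPM in the RPL3L OE cultures, and 11948, 11642 and 11796 CPM in the RPL3 OE cultures. RPL3L OE cells were thus below both other groups in every culture. Prdx2, a peroxiredoxin, Dhps, the deoxyhypusine synthase, and Nup93, a nuclear pore protein, are examples with log2 changes of -0.32, -0.31 and -0.29.

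Ribo-seq showed the same stretch, with 55 of 61 tested genes negative and a median of -0.223. The footprints summed to 13323, 13503 and 13460 CPM in control and 11139, 11092 and 11189 CPM in RPL3L OE cultures. The rest of chromosome 8 had a median RNA-seq change of -0.0369. Of the genes named above, Mt1, Mt2, Cacna1a, Orc6, Farsa and the chaperone Dnajb1 lie in this stretch, as do Ndufb7 and Cx3cl1 of the gene lists. The SRF and NRF2 lists have no tested member there. Without the 64 genes, 289 genes were called higher and 225 lower. The stretch was chosen after its values were seen, the DNA of these populations was not analysed here, and the part of chromosomal position in the results was not tested.

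**Figure D5:**
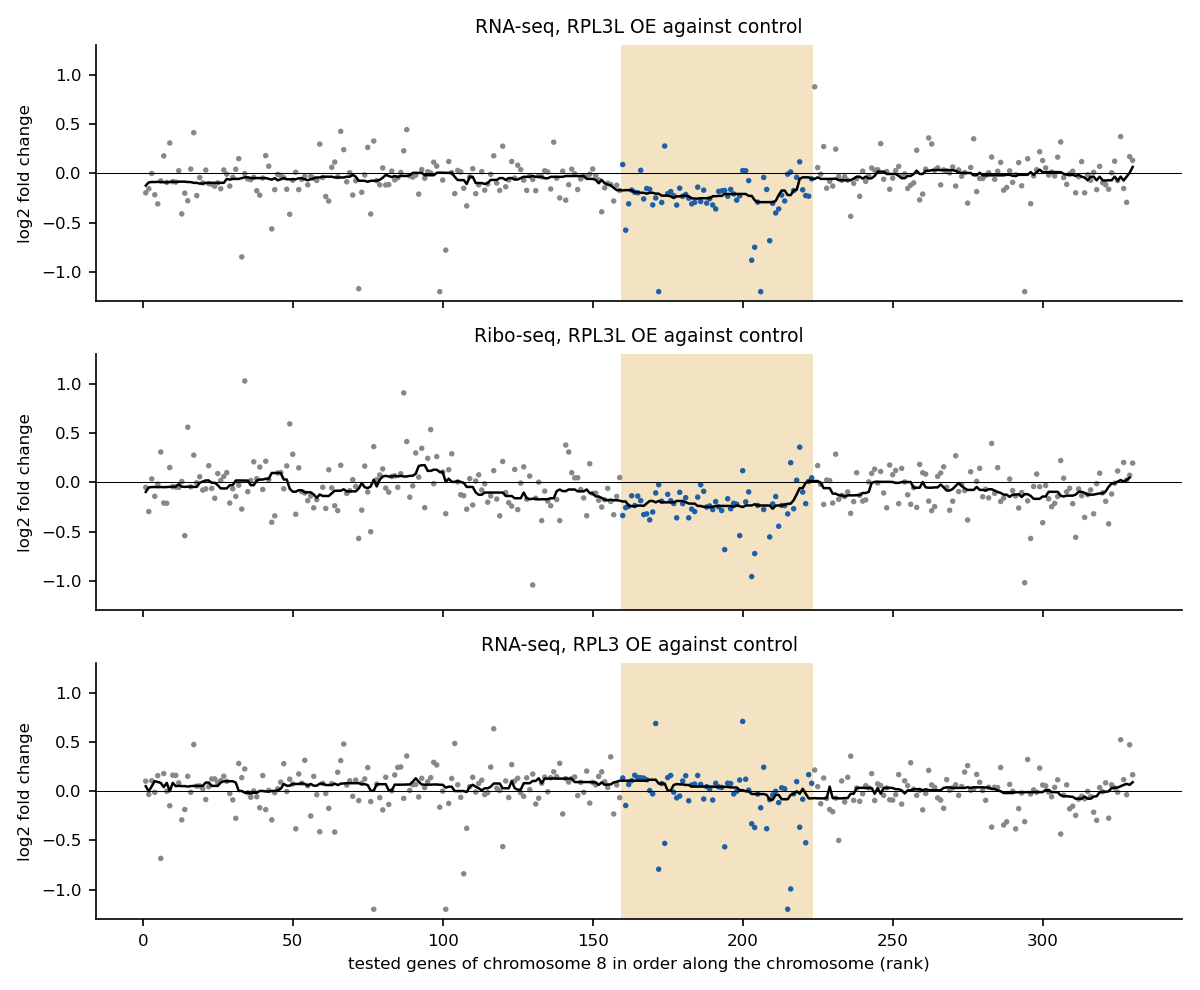
Log2 fold change of the 330 tested genes of chromosome 8 in their order along the chromosome (values beyond 1.2 are drawn at 1.2 or -1.2), in RNA-seq and Ribo-seq of RPL3L OE against control and in RNA-seq of RPL3 OE against control, with a running median over 15 genes as a line and the stretch from 80 to 100 Mb shaded. The running median of both RPL3L OE panels is below 0 across most of the shaded stretch (medians over its genes of -0.222 and -0.223), and the RPL3 OE panel has a median of 0.0283 there.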

How the data were processed

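RNA-seq libraries were poly(A)-selected and directional. The deposited table holds whole-number counts per transcript, as the authors made them. The submitters' processing notes name cutadapt, STAR and featureCounts and the builds GRCm38.p6 and mm10, without versions. The read processing of the RNA-seq libraries, their strand setting and their handling of multiply mapping reads are not given in the sources used here (for Ribo-seq, multiple mapping was permitted), so isoforms and near-identical genes can share reads. The table has 47754 lines, 2 identical lines for each of 23877 transcripts. Of the transcripts 23662 matched GENCODE M21, all on the plus strand, and 215 did not (under 1% of counts). Each gene was represented by its transcript of highest mean count. 28 other columns of per-sample values were not used.

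Genes with a mean count of at least 10 over the 6 libraries entered 1 edgeR model (version 4.0.16, R 4.3.3, TMM factors, quasi-likelihood test) of the 9 C2C12 RNA-seq libraries of 3 groups, with no covariate, and were called at an adjusted p under 0.05 (Benjamini-Hochberg). Ribo-seq libraries were fitted in the same way. DESeq2 1.42.0 was an alternative. Tested on simulated data for RPL3L OE against control (5770 genes, 200 changed), the fit recovered 79.5% of changes of 0.5 and 95.5% of changes of 1 on the log2 scale. SEs are the log2 change divided by the root of the F statistic. Replicates of a group differed by more than sampling noise. Same-numbered cultures of different groups did not deviate together.

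Named genes are Rpl3l, the 10 largest increases and 10 largest decreases (mean count of at least 50, groups not overlapping), the 5 largest each way with a mean count of at least 1000, the 5 largest each way against RPL3 OE among genes called in the same direction in both comparisons, up to 4 called members of each of 37 gene lists, and the myoblast markers. Further called members of a list, and the genes given as examples of the chromosome 8 stretch, were named after their values were seen. The members and lists were chosen with earlier results of these data known. The result of 1 gene is not reported here. Promoters are from RefSeq, 250 bases before to 50 after the RefSeq start, which can differ from the start of the transcript counted. Columns of the authors' own comparisons were not used.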

Additional observations from a re-analysis of the deposited data

How the results depend on the processing

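The number of genes called in RPL3L OE against control RNA-seq stayed within 1.5 times of 571 with no filter beyond a total of 10 counts, with a mean count of at least 50, with library totals, with only the groups compared, and with a replicate block. It fell to 379 with DESeq2 and to 361 with counts summed over transcripts, and was 1312 of 14435 with all transcripts counted separately, where isoforms can share reads. Leaving out 1 library at a time gave 357 to 577, the lowest without the third control library, the deepest, and 377 without the second RPL3L OE library. RPL3L OE against RPL3 OE gave 1584, 3870 with all transcripts, and 1255 to 1611 with 1 library left out. Ribo-seq gave 714, 309 with DESeq2, 1523 with all transcripts, 451 with summed counts, and 489 to 783 with 1 library left out. The causes were not tested. Same-numbered cultures of different groups showed no shared deviation, with correlations between -0.051 and 0.072, against -0.097 to 0.081 for other numbers. With 3 cultures a group this does not show whether same-numbered cultures were handled together. The replicate block gave 514, 1532 and 696 calls in these 3 comparisons. Of 118 single genes followed through the alternatives, 116 were called, none of them changed sign, and 46 lost their call in at least 1 alternative. Of 592 counts of gene lists under an alternative, 526 were within 1.5 times of the count reported. At these depths changes under 0.5 on the log2 scale are recovered in part only.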
